A study of Mus musculus with 6 samples.

Results

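The 9 genes described here encode germ cell translational regulators: proteins that bind messenger RNA and set when it is translated, stored or removed. They were taken by symbol (Dazl, Ddx4, Pum2, Cpeb1, Ybx1, Ddx25, Dnd1, Boll and Msi1) from the deposited table of 54532 mouse genes, and all 9 were found and passed the filter on low values. Whole testis of mice on postnatal day 9 was profiled by sequencing of polyadenylated RNA, with 3 libraries of testis carrying a conditional knockout of Ppp6r3 (Ppp6r3 cKO below) and 3 libraries of wild-type testis. PPP6R3 is one of the regulatory subunits that phosphatase 6 can take up. Neither the Cre driver, the deleted exons, the strain nor the number of animals behind a library is stated in the labels, and p-values therefore measure the spread between these libraries, which may be technical. The title of the series concerns control of translation while spermatogonia differentiate, and the question put to these genes was whether the transcripts of the cell's own translational regulators differed without Ppp6r3.

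A maturing germ cell makes many messenger RNAs before it uses them, and RNA-binding proteins hold them back or release them. CPEB1 binds a short U-rich element in the 3' untranslated region and directs lengthening of the poly(A) tail in the cytoplasm; in mouse germ cells it has been described as needed for translation of the synaptonemal complex messages Sycp1 and Sycp3. DAZL and its relative BOLL share an RNA recognition motif, DDX4 and DDX25 are DEAD-box helicases, PUM2 and DND1 act with NANOS proteins and recruit deadenylases, YBX1 packages messenger RNA, and MSI1 is a repressor best known from neural stem cells. DAZL, DDX4 and BOLL are made mainly in germ cells, while YBX1, PUM2 and MSI1 are also found in many other cells.

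Levels are given as FPKM, that is, the fragments of a gene per kilobase of its exons and scaled to the depth of its library. The steps between the deposited values correspond to 15970909 to 16606868 fragments per library, and each of the 9 genes had between 297 and 7912 fragments in every library. Ppp6r3 itself, the target, stood at 14.9 to 15.8 FPKM in the 3 Ppp6r3 cKO libraries, against 20.8 to 21.3 FPKM in the 3 wild-type libraries (log2 fold change -0.45, SE 0.042, limma adjusted p = 0.000695). Ppp6r3 cKO replicate 1 stood apart by base composition: relative to the mean of the 6 libraries, the median of its genes of lowest GC content was -0.11 and that of its genes of highest GC content 0.13 on the log2 scale, in the outer of 10 bins. Values without that library and after a correction for GC content and gene length stand beside the results of the 9 genes that they move.

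Of the 9 regulators, 3 fell in Ppp6r3 cKO testis, 1 rose and 5 did not pass (limma, adjusted p under 0.05 over all 17658 genes tested). Over all genes tested 15.5% passed, 7.86% lower and 7.67% higher in Ppp6r3 cKO. Cpeb1 fell the most, to 0.579 of the wild-type level, followed by Boll at 0.765 and Dazl at 0.845, and Msi1 rose to 1.12 times the wild-type level. Without wild-type replicate 1, 2 or 3, only Cpeb1 and Boll were called, 2 of the 9. The median log2 fold change of the 9 was -0.002, the value of Ddx25, beside 0.003 over all genes tested. Falls and rises were not equal in size, since falls reached -0.78 (Cpeb1) and rises 0.17 (Msi1). The groups did not overlap in 7 of the 9 genes, of which 4 were lower and 3 higher in Ppp6r3 cKO; the same held for 37.0% of all genes tested, 18.2% lower and 18.8% higher. In whole testis, fewer cells that carry a transcript and less transcript per cell cannot be told apart.

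**Figure D1:**
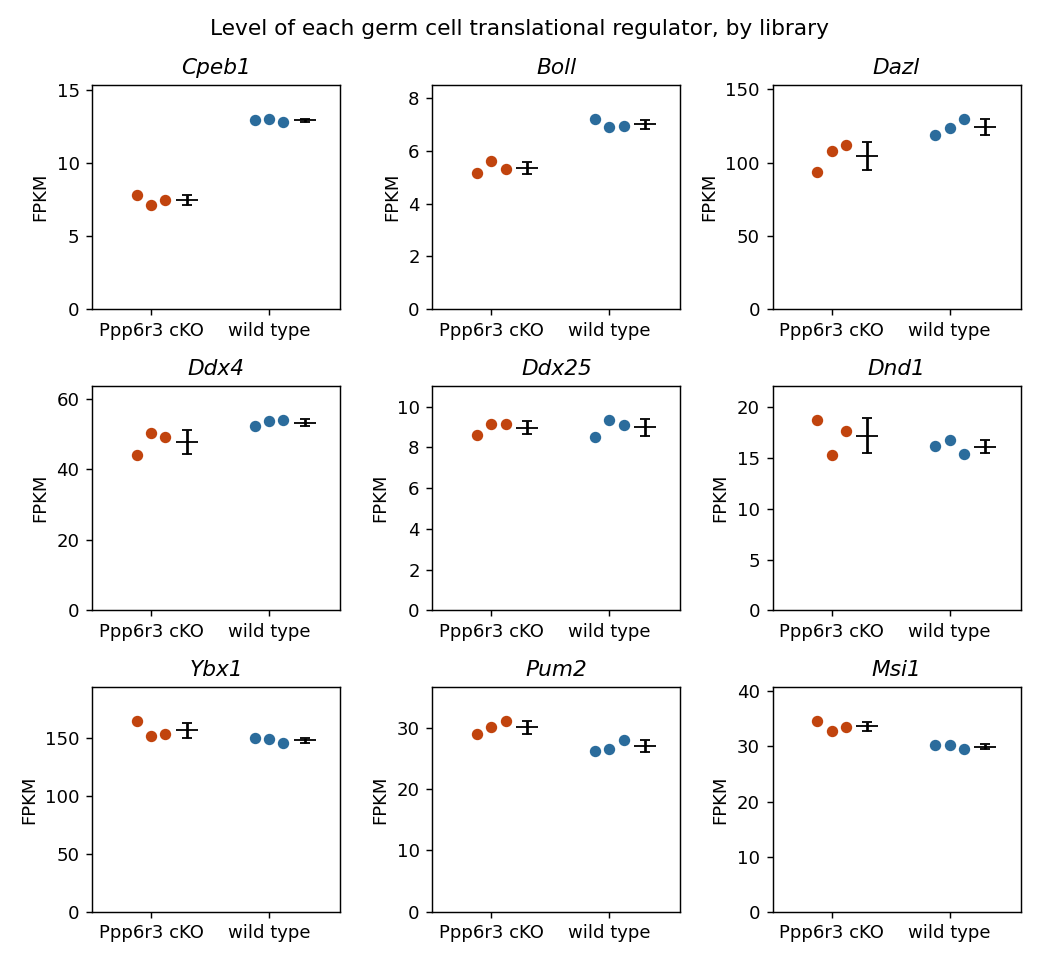
Level of each of the 9 regulators in FPKM (y axis, from 0), with 1 point per library for Ppp6r3 cKO (left, orange) and wild type (right, blue) and the mean with its SD beside the points (n = 3 each). Cpeb1 shows the widest gap, 7.14 to 7.82 FPKM in Ppp6r3 cKO against 12.8 to 13.0 FPKM in wild type, while the Ddx25 and Dnd1 points overlap.

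The stretches of DNA before the starts of the 3 genes that fell are shown because these genes were lower together. Each is the 250 bases before a RefSeq start on GRCm38.p6 (the assembly also called mm10), read on the gene's own strand; 7 of the 9 genes had an entry. Capitals mark matches, on either strand, to 4 motifs: the E-box CACGTG bound by MAX and its partners, the E2F motif TTCCCGC, the motif CNCCTCAG described for STRA8, and CCAAT. None of the printed matches overlaps another.
Cpeb1, minus strand, chr7:81454759-81455008: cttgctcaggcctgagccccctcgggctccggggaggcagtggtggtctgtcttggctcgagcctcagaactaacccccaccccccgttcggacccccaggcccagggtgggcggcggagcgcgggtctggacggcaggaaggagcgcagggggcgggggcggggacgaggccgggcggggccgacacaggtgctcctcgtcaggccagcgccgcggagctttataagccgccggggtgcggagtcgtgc
Boll, minus strand, start within its GENCODE transcript, chr1:55362729-55362978: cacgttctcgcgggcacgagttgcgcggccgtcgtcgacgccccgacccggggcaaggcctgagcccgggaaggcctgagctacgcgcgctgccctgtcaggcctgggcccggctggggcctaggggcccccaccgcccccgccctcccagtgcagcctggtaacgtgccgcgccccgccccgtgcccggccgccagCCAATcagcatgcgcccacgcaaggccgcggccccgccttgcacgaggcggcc
Boll, minus strand, second RefSeq start, chr1:55363754-55364003: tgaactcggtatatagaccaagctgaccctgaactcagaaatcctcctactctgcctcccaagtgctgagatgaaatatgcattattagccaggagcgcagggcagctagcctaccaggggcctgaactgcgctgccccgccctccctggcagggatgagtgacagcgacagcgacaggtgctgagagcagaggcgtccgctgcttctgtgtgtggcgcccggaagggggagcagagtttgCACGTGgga
Dazl, minus strand, chr17:50293621-50293870: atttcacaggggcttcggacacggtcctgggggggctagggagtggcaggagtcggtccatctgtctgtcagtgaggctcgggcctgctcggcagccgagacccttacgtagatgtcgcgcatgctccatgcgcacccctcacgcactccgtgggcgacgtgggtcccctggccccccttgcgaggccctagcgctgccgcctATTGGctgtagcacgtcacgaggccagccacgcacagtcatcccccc
The Cpeb1 window held none of the 4 motifs. The second Boll window held 1 E-box, found in 6.02% of all 32851 windows, and the Dazl window and the first Boll window each held 1 CCAAT, found in 33.8%. No GENCODE transcript of Boll held the bases that follow that second start. None of the 4 printed windows held the STRA8 motif (6.42% of all windows) or the E2F motif (3.82%). Among the other members, the Ddx4 window held 1 E-box, 1 E2F match and 2 CCAAT, and 1 of 3 Pum2 windows held 1 E2F match. The bases after the Ddx4 start were in no GENCODE transcript of Ddx4 either, and 165 of its 250 window bases lay in GENCODE exons. The Ybx1 window held 3 CCAAT and the Ddx25 window 1. Ybx2, a relative of Ybx1, had no STRA8 match in the window at the start of the gene and 1 in a window farther downstream. The printed windows held 25 CpG for Cpeb1, 33 and 11 for Boll and 20 for Dazl, beside a median of 6 over all windows. The Boll window with 11 exceeded 64.4% of all windows. Members that did not pass had similar counts, with 25 for Ybx1, 34 for Ddx25, 31 for Ddx4 and 30 to 36 for Pum2. CpG content thus did not set apart the genes that fell. These are matches of letters, and no binding was measured here.

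Cpeb1 (ENSMUSG00000025586, chromosome 7, 81347026 to 81455465 on the minus strand, protein-coding) had 7.82, 7.14 and 7.47 FPKM in Ppp6r3 cKO, against 12.91, 13.00 and 12.83 FPKM in wild type. The 3 libraries of each group lay close together and far from those of the other. The mean was 7.47 ± 0.34 FPKM in Ppp6r3 cKO and 12.91 ± 0.0833 FPKM in wild type (SD, n = 3 each), a log2 fold change of -0.78 (SE 0.0506, 95% interval -0.90 to -0.67, limma adjusted p = 0.00015). Only 1.91% of the genes tested had a lower log2 fold change. The fall rested on 478 to 537 fragments per Ppp6r3 cKO library and 859 to 904 per wild-type library. It was called under each alternative run, with log2 fold changes from -0.81 to -0.72.

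Boll (ENSMUSG00000025977, chromosome 1, 55248658 to 55363469, minus strand), the member of the DAZ family needed for sperm formation in the mouse, had 5.16, 5.61 and 5.33 FPKM in Ppp6r3 cKO, against 7.20, 6.90 and 6.93 FPKM in wild type. The highest Ppp6r3 cKO value was below the lowest wild-type value. The fall was 0.38 on the log2 scale (log2 fold change -0.38, SE 0.0585, 95% interval -0.52 to -0.25, limma adjusted p = 0.00546). With 297 to 420 fragments per library it had the fewest of the 9 genes, and it too was called under each alternative run, at -0.41 to -0.30. The log2 fold change of Boll was -0.35 without Ppp6r3 cKO replicate 1 (limma adjusted p = 0.0135). After the GC and length correction it was -0.30 (limma adjusted p = 0.00902).

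Dazl (ENSMUSG00000010592, chromosome 17, 50279395 to 50293636, minus strand), which germ cells need before they can enter meiosis, stood at 93.86, 108.3 and 112.2 FPKM in Ppp6r3 cKO, against 119.0, 123.5 and 129.7 FPKM in wild type. The groups did not overlap, but Ppp6r3 cKO replicate 1 lay well below the other two. The mean was 104.8 ± 9.65 FPKM in Ppp6r3 cKO and 124.1 ± 5.38 FPKM in wild type (SD, n = 3 each), and the fold change of -0.25 on the log2 scale (SE 0.0681) had a limma adjusted p of 0.0446. Dazl has the lowest GC content of the 9 genes, 37.26%, and its log2 fold change was -0.17 without Ppp6r3 cKO replicate 1 (adjusted p = 0.0452) and -0.15 after the GC and length correction (adjusted p = 0.0169). The call was lost without any single wild-type library (-0.28, -0.25 and -0.21 without replicates 1, 2 and 3) and without Ppp6r3 cKO replicate 2 (-0.27); over those libraries the adjusted p ran up to 0.138.

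Of the helicases, Ddx4 (ENSMUSG00000021758, chromosome 13, 112598333 to 112652475, minus strand), the germ granule protein also known as mouse vasa homolog, had 43.96, 50.24 and 49.22 FPKM in Ppp6r3 cKO, against 52.22, 53.67 and 53.93 FPKM in wild type. Each Ppp6r3 cKO library lay below each wild-type library, with replicate 1 again the lowest, and the difference did not pass (log2 fold change -0.16, 95% interval -0.28 to -0.03, limma adjusted p = 0.0857). It was -0.10 without that library and -0.07 after the GC and length correction, and voom on recovered fragments called it lower (adjusted p = 0.0132). Ddx25 (ENSMUSG00000032101, chromosome 9, 35536647 to 35558528, minus strand), a hormone-regulated helicase of Leydig cells and later germ cells, had 8.61, 9.12 and 9.16 FPKM in Ppp6r3 cKO, against 8.51, 9.33 and 9.10 FPKM in wild type. The groups overlapped, and the log2 fold change of -0.002 had a 95% interval of -0.13 to 0.13 (limma adjusted p = 0.987); without Ppp6r3 cKO replicate 1 it was 0.03.

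Msi1 (ENSMUSG00000054256, chromosome 5, 115429599 to 115455698, plus strand) was the only one of the 9 called higher under the main settings. It had 34.54, 32.90 and 33.55 FPKM in Ppp6r3 cKO, against 30.25, 30.22 and 29.46 FPKM in wild type, and the groups did not overlap (log2 fold change 0.17, SE 0.0383, limma adjusted p = 0.0238). Msi1 has the highest GC content of the 9, 57.07%, and after the GC and length correction its log2 fold change was 0.09 and did not pass (adjusted p = 0.082). It was also lost without Ppp6r3 cKO replicate 3 (0.17) or any single wild-type library (0.17, 0.17 and 0.15), with adjusted p up to 0.0897.

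Pum2 (ENSMUSG00000020594, chromosome 12, 8674134 to 8752581, plus strand) had 28.95, 30.10 and 30.98 FPKM in Ppp6r3 cKO, against 26.19, 26.53 and 28.02 FPKM in wild type. The groups did not overlap and the difference stood just outside the threshold (log2 fold change 0.16, 95% interval 0.05 to 0.26, limma adjusted p = 0.0521); it passed with voom, after the GC and length correction (0.17, adjusted p = 0.011), without robust estimation and without Ppp6r3 cKO replicate 1 (0.18, adjusted p = 0.0366). Ybx1 (ENSMUSG00000028639, chromosome 4, 119277981 to 119294604, minus strand), the most abundant of the 9 per length, had 164.1, 151.8 and 153.4 FPKM in Ppp6r3 cKO, against 149.5, 149.1 and 145.6 FPKM in wild type. Its groups were only just apart (log2 fold change 0.08, limma adjusted p = 0.227; 0.04 without Ppp6r3 cKO replicate 1, and 0.12 and called after the GC and length correction, adjusted p = 0.0311). For Dnd1 (ENSMUSG00000044595, chromosome 18, 36763671 to 36766214, minus strand), the partner of NANOS2 in male germ cells, the values were 18.67, 15.28 and 17.60 FPKM in Ppp6r3 cKO, against 16.15, 16.74 and 15.39 FPKM in wild type. The groups overlapped (log2 fold change 0.09, 95% interval -0.08 to 0.26, limma adjusted p = 0.461), and the log2 fold change was 0.03 without Ppp6r3 cKO replicate 1. Dnd1 shares 140 exon bases with Wdr55 on the opposite strand, and Wdr55 averaged 27.9 FPKM in Ppp6r3 cKO and 25.2 FPKM in wild type, so some reads may belong to either gene. The annotation names 1 pseudogene after Ybx1 and 1 after Dnd1, and reads shared with these copies may be counted with either gene.

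**Figure D2:**
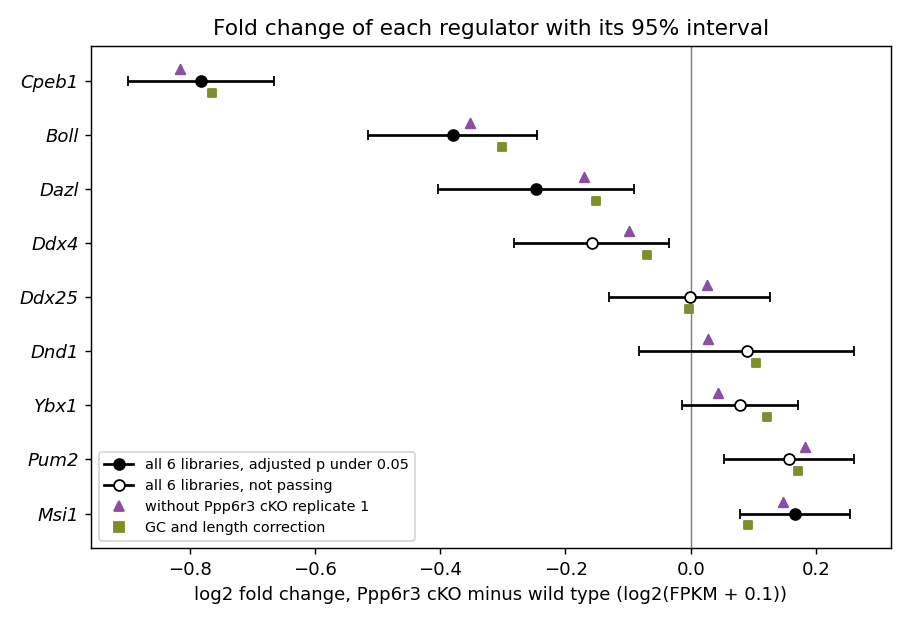
Log2 fold change of each regulator, Ppp6r3 cKO minus wild type, on the log2(FPKM + 0.1) scale (x axis), as circles with 95% intervals from limma, filled where the adjusted p was under 0.05; triangles leave out Ppp6r3 cKO replicate 1 and squares correct for GC content and length. Cpeb1 lies far to the left of the others at -0.78, and the Dazl squares and triangles lie nearer to 0 than its circle.

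By level per length the order was Ybx1, Dazl, Ddx4, Msi1, Pum2, Dnd1, Cpeb1, Ddx25 and Boll, from 148.1 FPKM to 7.01 FPKM in wild type. Over the 6 libraries the ranges of neighbours in that order overlapped for 2 pairs, Msi1 with Pum2 and Cpeb1 with Ddx25. In wild type Cpeb1 lay above Ddx25 (12.91 and 8.98 FPKM), while in Ppp6r3 cKO it lay below it (7.47 and 8.97 FPKM).

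To set the regulators against each other, ratios of 7 pairs were formed within each library and compared by a 2-sided exact permutation test, which with 3 against 3 libraries cannot go below p = 0.1; the pairs at that value had p = 0.175 after Benjamini-Hochberg adjustment over the 7. Cpeb1 relative to Dazl was -3.57, -3.91 and -3.89 on the log2 scale in Ppp6r3 cKO, against -3.19, -3.24 and -3.33 in wild type, a difference of -0.54 (exact p = 0.1). The ratio of Cpeb1 to Boll differed by -0.40 (exact p = 0.1), also without overlap. Boll to Dazl (difference -0.13) and Ddx4 to Dazl (0.09) overlapped between the groups, each with exact p = 0.2. Cpeb1 to its relative Cpeb2 (difference -0.35) and Ybx2 to Ybx1 (-1.12) also did not overlap, each with exact p = 0.1. Msi1 to its relative Msi2 overlapped (0.01, exact p = 0.5). The smallest p this design allows was thus reached by the Cpeb1 ratios and by Ybx2 to Ybx1. Each difference equals that between the log2 fold changes of its 2 genes, so the ratios add no independent result. The ratios of Boll and Ddx4 to Dazl did not separate the groups.

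Across the 6 libraries Dazl and Ddx4 followed each other closely (Pearson r = 0.97 on log2(FPKM + 0.1), a description over 6 libraries that share a group difference and the dip of Ppp6r3 cKO replicate 1). Among 12286 protein-coding genes with a mean of at least 1 FPKM, those most like Dazl were Golga4, Phf20l1 and Atm (r = 0.995 to 0.997), and those most like Ddx4 were Spcs3, Srsf5 and Exoc5 (r = 0.994 to 0.995). With so many genes and 6 libraries, values this high say little about any single gene.

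The relatives of the 9 genes were compared next. Nanos1, Nanos2, Nanos3 and Dazap1 were counted with them, although they belong to other families. Of 13 relatives 12 were tested, of which 2 fell, 1 rose and 9 did not pass (median log2 fold change 0.08). In the CPEB family, Cpeb2 had 2.88, 3.002 and 3.40 FPKM in Ppp6r3 cKO, against 4.05, 3.88 and 4.75 FPKM in wild type, and fell by 0.44 on the log2 scale (limma adjusted p = 0.0266), a call lost without Ppp6r3 cKO replicate 1 (-0.39) or 2 (-0.42) or wild-type replicate 1 (-0.46) or 3 (-0.35), with adjusted p up to 0.0856. Cpeb3 (log2 fold change -0.10) and Cpeb4 (-0.12) overlapped between the groups and did not pass. Transcripts of the 4 CPEB genes together came to 17.4 ± 0.782 FPKM in Ppp6r3 cKO and 24.6 ± 0.473 FPKM in wild type (SD, n = 3 each). Cpeb1 made up 42.9% ± 2.0 of that sum in Ppp6r3 cKO and 52.5% ± 1.3 in wild type, and neither the sum nor the share was tested.

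In the Y-box family, Ybx2, which stores messages in later male germ cells, fell the most of all relatives. Its values were 10.23, 8.43 and 9.01 FPKM in Ppp6r3 cKO, against 20.32, 17.84 and 19.17 FPKM in wild type (log2 fold change -1.05, SE 0.0788, limma adjusted p = 0.00032). Ybx3 did not pass (0.04; 0.03 without Ppp6r3 cKO replicate 1, 0.07 after the GC and length correction). Ybx2 was 4.65% ± 0.27 of summed Y-box transcripts in Ppp6r3 cKO and 9.63% ± 0.53 in wild type, while the sum itself was 197.9 ± 8.27 FPKM in Ppp6r3 cKO and 198.5 ± 3.23 FPKM in wild type (SD, n = 3 each). Msi2 stood at 0.15 and did not pass (adjusted p = 0.0633; 0.14 and called after the GC and length correction, adjusted p = 0.047), and Msi1 made up 74.6% ± 0.69 of Musashi transcripts in Ppp6r3 cKO and 74.4% ± 0.57 in wild type. Ddx6, a helicase of translational repression, rose by 0.19 (adjusted p = 0.0334), a call lost without any single library (0.16 to 0.22) other than Ppp6r3 cKO replicate 1, and with the replicate block (adjusted p = 0.0516). Of the remaining relatives, Nanos1 (0.21), Ddx3x (0.13), Ddx3y (0.09) and Dazap1 (0.06) did not pass; after the GC and length correction Nanos1 (0.23, adjusted p = 0.0419) and Ddx3x (0.17, adjusted p = 0.0123) were called higher, and without Ppp6r3 cKO replicate 1 Ddx3x was too (0.18). Nanos3, which germ cells need to survive, stood at 0.21 without passing (adjusted p = 0.14; 0.12 without Ppp6r3 cKO replicate 1), and Nanos2 had 9, 10 and 4 fragments in Ppp6r3 cKO, against 3, 10 and 2 in wild type, too few for a test.

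**Figure D3:**
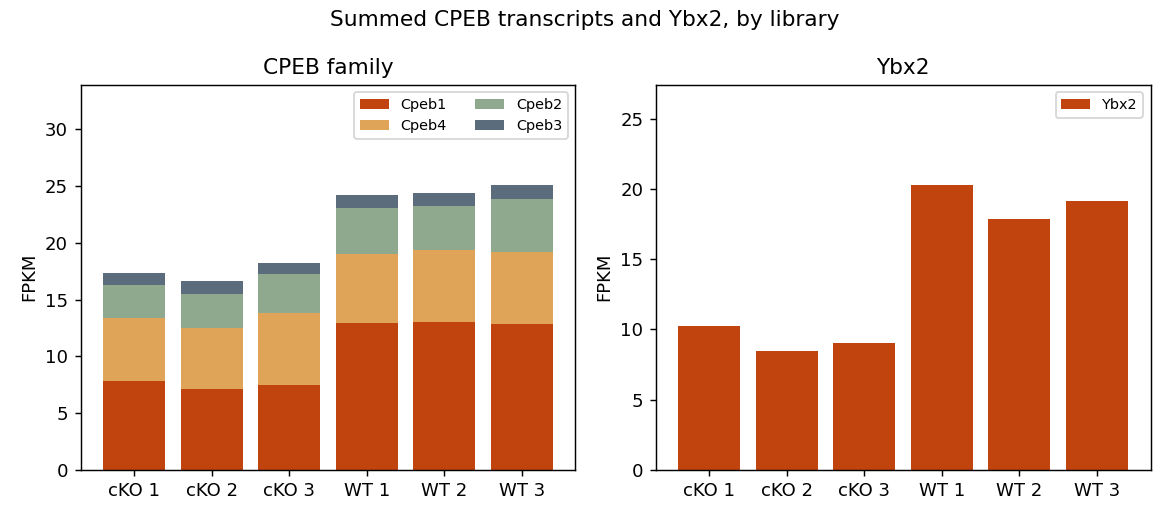
Left, FPKM of the 4 CPEB genes stacked by library (y axis from 0), 3 Ppp6r3 cKO libraries to the left of 3 wild-type (WT) libraries; right, FPKM of Ybx2 in the same libraries. The Ppp6r3 cKO stacks reach 16.7 to 18.2 FPKM and the wild-type stacks 24.2 to 25.1 FPKM, and Ybx2 stands at 8.43 to 10.2 FPKM in Ppp6r3 cKO against 17.8 to 20.3 FPKM in wild type.

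Among 20 other RNA-binding regulators of germ cells, 3 fell, 3 rose and 14 did not pass (median -0.08). Rbpms2, an RNA-binding protein known from zebrafish oocytes, had 8.74, 8.26 and 8.14 FPKM in Ppp6r3 cKO, against 16.56, 18.40 and 16.27 FPKM in wild type (log2 fold change -1.02, limma adjusted p = 0.00013). Meioc, which works with YTHDC2 to hold the meiotic programme, fell by 0.71 on the log2 scale (adjusted p = 0.000902), and Fmr1, the gene of the fragile X protein, by 0.38 (adjusted p = 0.00764). All 3 were called whichever library was left out. The 3 that rose were Bicc1 (0.34, limma adjusted p = 0.00901), Lin28a (0.26, adjusted p = 0.0237) and Larp1 (0.19, adjusted p = 0.0308). The Larp1 call was lost without Ppp6r3 cKO replicate 1 (adjusted p = 0.0579) and after the GC and length correction (adjusted p = 0.0511). Genes of the machinery that the regulators recruit were compared as 2 lists. Of 17 genes of deadenylation, CCR4-NOT included, 16 did not pass, and Tob2, an adaptor for that complex, rose by 0.32 (adjusted p = 0.0117; median of the list -0.04). Of 18 genes listed for poly(A) binding and cytoplasmic polyadenylation, 2 rose, 3 fell and 13 did not pass (median 0.03). That list also counted genes of cap binding, decapping and 3' end formation. Pabpc1, the main cytoplasmic poly(A)-binding protein, had 115.0, 107.6 and 111.4 FPKM in Ppp6r3 cKO, against 91.06, 92.90 and 94.44 FPKM in wild type (log2 fold change 0.26, adjusted p = 0.00451). Paip2b, an inhibitor of that protein, fell by 0.30 (adjusted p = 0.0197; lost without any wild-type library, at -0.31 to -0.28), and Cpsf3, the nuclease of 3' end formation, fell by 0.23 (adjusted p = 0.0079).

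**Figure D4:**
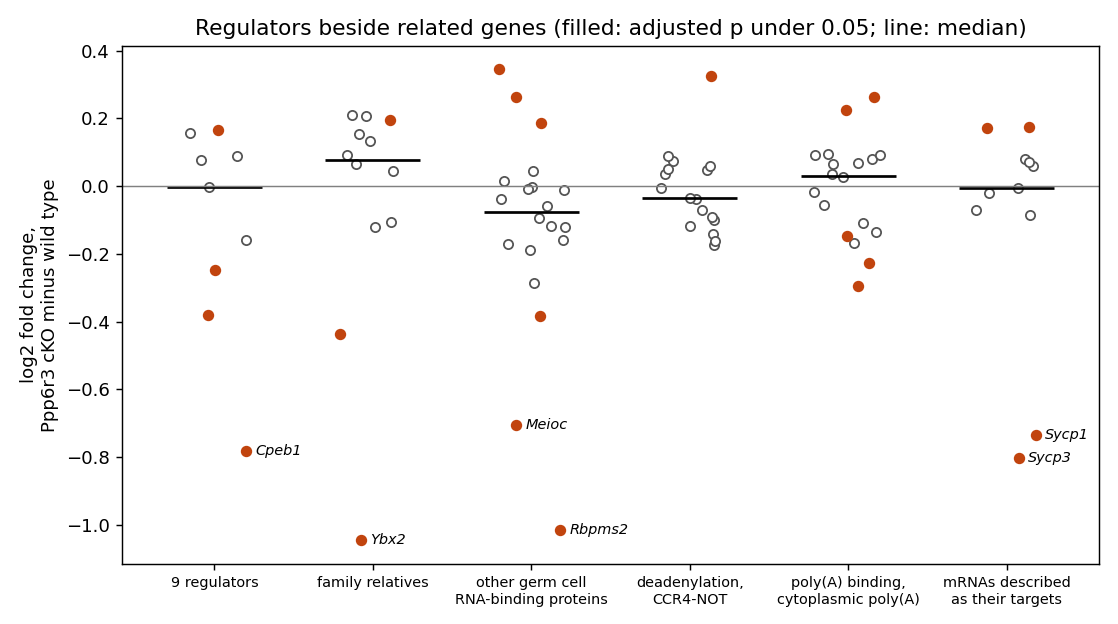
Log2 fold change of single genes, Ppp6r3 cKO minus wild type (y axis), for the 9 regulators and 5 lists of related genes (x axis), filled where the limma adjusted p was under 0.05, with the median of each list as a line. Cpeb1, Ybx2, Rbpms2, Meioc, Sycp1 and Sycp3 lie below -0.5, while the medians stay between -0.08 and 0.08.

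Messages described as bound or regulated by these proteins went different ways. Of 12 listed, 11 were tested, of which 2 fell, 2 rose and 7 did not pass (median -0.01). Sycp3 had 15.40, 22.03 and 20.74 FPKM in Ppp6r3 cKO, against 33.87, 32.09 and 34.53 FPKM in wild type (log2 fold change -0.80, limma adjusted p = 0.00772), and Sycp1 fell by 0.73 (adjusted p = 0.000471). Ccnb1, the cyclin B1 message that CPEB1 is described to regulate in oocytes, went the other way, with 38.41, 38.52 and 38.60 FPKM in Ppp6r3 cKO, against 34.46, 33.07 and 35.07 FPKM in wild type (log2 fold change 0.17, adjusted p = 0.0215), a call lost without Ppp6r3 cKO replicate 2 (0.17) or 3 (0.17) or wild-type replicate 1 (0.18) or 2 (0.15). RNA level was measured here, and neither poly(A) tail length nor translation. Tex19.1, a germ cell gene, rose by 0.18 (adjusted p = 0.0219; lost without Ppp6r3 cKO replicate 2 or wild-type replicate 2 or 3, at 0.16 to 0.17). The spermatid messages that such proteins store had few fragments at this age. Of 8, only Odf1 met the filter, with 6 to 18 fragments per library and a log2 difference of 0.45 (adjusted p = 0.354, not passing; 0.75 without Ppp6r3 cKO replicate 1), and the other 7 had at most 12 fragments in any library.

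Markers of the cells of the testis differed in the same libraries. Of 10 germ cell markers other than the 9 regulators, 5 fell and 2 rose. Their summed level was 603.8 to 639.8 FPKM in Ppp6r3 cKO, against 747.1 to 789.3 FPKM in wild type. The lower sum rested largely on a few markers. Stra8 averaged 51.39 FPKM in Ppp6r3 cKO and 129.9 FPKM in wild type, and Tex101 averaged 74.61 and 129.3 FPKM. Uchl1, the highest of the 10, averaged 213.7 and 215.1 FPKM and overlapped between the groups. Stra8, which starts meiosis, had a log2 fold change of -1.34 and Tex101 of -0.79, while Zbtb16, of undifferentiated spermatogonia, rose by 0.50. Of 5 endothelial markers 3 rose, Tie1 by 0.95, Cdh5 by 0.61 and Pecam1 by 0.38 (35.0 to 38.5 FPKM summed in Ppp6r3 cKO, against 24 to 26.1 FPKM in wild type), the call of Pecam1 being lost without Ppp6r3 cKO replicate 1 (0.34) or 3 (0.35) or wild-type replicate 2 (0.41) or 3 (0.31). Of 6 macrophage markers, Adgre1 and Csf1r rose and the other 4 overlapped between the groups and did not pass (60.9 to 72.6 FPKM summed in Ppp6r3 cKO, against 54.9 to 59.1 FPKM in wild type). Of 6 Leydig cell markers only Hsd3b1 passed, and it rose. Lhcgr (0.23), Star (0.14) and Cyp11a1 (0.06) had higher values without passing, and Insl3 (-0.10) and Cyp17a1 (-0.18) had lower values without passing. After the GC and length correction Star was called higher (limma adjusted p = 0.0327) and Insl3 lower (adjusted p = 0.0492). Hsd3b1 made up most of the summed level of 193.4 to 196.2 FPKM in Ppp6r3 cKO, against 173.8 to 181.2 FPKM in wild type. Of 5 erythroid markers 3 fell (202.7 to 222.5 FPKM summed in Ppp6r3 cKO, against 319.6 to 355.5 FPKM in wild type). Of 5 myoid cell markers, Acta2 fell by 0.25 and Cnn1 by 0.18, the call of Cnn1 being lost without any single library (-0.22 to -0.16) and with GC content and length corrected (-0.15). The other 3 overlapped between the groups and did not pass. Acta2 made up most of the summed myoid level of 500.3 to 528.8 FPKM in Ppp6r3 cKO, against 591.6 to 617.6 FPKM in wild type. Summed Sertoli markers overlapped between the groups, at 2093 to 2296 FPKM in Ppp6r3 cKO and 2197 to 2268 FPKM in wild type, with Amh and Gata4 higher and Rhox5 lower. Clu made up the largest part of that sum, with 1043 to 1131 FPKM in Ppp6r3 cKO, against 1144 to 1171 FPKM in wild type. Its groups did not overlap and it did not pass (log2 fold change -0.10, limma adjusted p = 0.129). Clu was called lower after the GC and length correction (adjusted p = 0.0269) and without Ppp6r3 cKO replicate 1 (-0.13, adjusted p = 0.0288). The Gata4 call was lost without any wild-type library (0.22 to 0.23), and that of Rhox5 without any wild-type library or Ppp6r3 cKO replicate 1 (-0.57 to -0.45) and after the GC and length correction (-0.44). No marker was at 0 in any library, and the part of these cell types in the differences of the 9 regulators was not tested.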

How the data were processed

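Per the labels' protocols, libraries were made from polyadenylated RNA of whole testis with a stranded kit. Per the series' design text and the submitters' processing notes, reads were aligned to mm10 with HISAT2 2.0.5, and DESeq2 was also named; the counter, its strand setting and the annotation release are not given in the sources used here. The deposited values are FPKM made by the authors, although the table is named as raw counts. Each value times the gene's exon length in GENCODE M21 (GRCm38) gave whole fragments within 0.01 for 97.0% of 32589 genes above 0, and with another whole length for the other 964. Depth is thus inferred, not stated.

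Values were put on the log2(FPKM + 0.1) scale and compared by limma 3.58.1, run in R 4.3.3 (trend and robust variance, 2-sided, Benjamini-Hochberg over all genes, threshold 0.05), keeping genes that reached 10 recovered fragments in 3 or more libraries; folds understate changes of low genes. On simulated data with 17433 genes it recovered 62.7% of 1.5-fold, 80.0% of 2-fold and 98.4% of 4-fold changes, with 9 false among 165 calls. The simulated counts had the same small dispersion for every gene and no GC trend, and far fewer genes changed than were called here. No change under 1.5-fold was simulated, so these rates need not hold for the measured libraries. Within a group, fragment counts varied beyond counting error, with a chi-square of 2.18 to 4.20 per degree of freedom, so no libraries were merged. GC content is the mean over GENCODE transcripts weighted by length. Ratios were tested with scipy 1.17.1 under Python 3.11.15. The 9 genes, the 13 other lists (135 entries) and the motifs were chosen with earlier results of these data known. Besides the 9 genes and Ppp6r3, the genes named are the direct relatives and a few genes per list. Per list these were at most 3 that passed, taken by size of change, or else 2 taken by p. Zbtb16, Wdr55, Ccnb1, Insl3, Cyp17a1, Lhcgr, Star, Cyp11a1, Clu, Uchl1, Bicc1, Lin28a and Larp1 were named after their values were seen. One further relative, not counted among them, is not reported here. Alternatives changed the pseudocount, filter, model, scaling, robust step, replicate block, GC and length, threshold and libraries.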

Additional observations from a re-analysis of the deposited data

How the results depend on the processing

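Cpeb1 and Boll were called under each of the 16 alternatives, among them the threshold of 0.01 applied to the main fit. Over the alternatives the limma adjusted p of Boll ran up to 0.0249. Dazl was not called with the minimum of 0.5 FPKM, with no low-value filter, without robust estimation, after quantile normalization, at an adjusted p under 0.01, or without 4 of the libraries. The count of regulators called was 2 at an adjusted p under 0.01 and 2 to 5 without 1 library. Those called higher numbered 2 with voom, 2 without robust estimation, 2 after the GC and length correction, 0 at an adjusted p under 0.01 and 0 to 2 without 1 library. Those called lower numbered 2 to 4 over all alternatives.

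Ddx25, never called, changed sign after quantile normalization (0.0059) and ran from -0.0395 to 0.0265 without 1 library. Over all genes, 1508 were called with no filter (740 higher, 768 lower), 889 at an adjusted p under 0.01 (418 higher, 471 lower), 4083 with voom (2115 higher) and 1265 to 2455 without 1 library (619 to 1143 higher, 646 to 1312 lower). The cause was not tested, except that fewer libraries or a stricter threshold were then used. Boll had the fewest fragments of the 9, and Nanos2 had too few to be tested.

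The replicate numbers were shared by both groups, but same-numbered libraries did not deviate together (correlations 0.014, -0.005 and -0.007), and only number 1 correlated best with itself. With the replicate block 2197 genes were called, and 4 of the 9 regulators, 3 lower and 1 higher; of the other genes named, Ddx6 (adjusted p = 0.0516), Pecam1 (0.0544) and Cnn1 (0.0836) lost their calls.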
